A study of Homo sapiens with 8 samples.

Results

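The DNA replication machinery was followed here as 39 genes, picked by symbol, among 18902 features of a table of gene expression in hepatocellular carcinoma cell lines. The genes were sorted into 8 roles: the helicase that opens the double helix, origin licensing, the sliding clamp and its loader, polymerases and primase, nucleotide supply, joining of Okazaki fragments, chromatin assembly and a single transcription factor, E2F1. All 39 were in the table and all passed the filter of a mean of at least 0.5 FPKM (a level scaled to transcript length and to the mapped fragments of the library), which left 13553 genes to test. Since FPKM divides by length, levels may be set side by side between genes.

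The study asked what the enzyme OGT, which attaches the sugar GlcNAc to serines and threonines of nuclear and cytoplasmic proteins, does to transcription in liver cancer cells. MHCC-97H and MHCC-97L are human liver cancer lines derived from 1 parental line and known for high and low metastatic potential. There were 8 RNA-seq libraries in 4 groups of 2: MHCC-97H control, MHCC-97H with Flag-OGT, MHCC-97L control and MHCC-97L with Flag-OGT. Flag-OGT is full-length wild-type human OGT with a C-terminal 3 × Flag tag, carried by a lentiviral vector that also expresses luciferase, in stable cells selected with neomycin. The labels name no OGT construct for the control groups and do not say whether those cells carried the empty vector or went through selection. They also do not say whether the 2 libraries of a group came from separate cultures, so a p-value here reflects no more than the scatter of these libraries, part or all of which may be technical. Whether a Flag-OGT line is 1 clone or a pool is not given either.

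Before a cell divides, the origin recognition complex, CDC6 and CDT1 load the ring-shaped MCM helicase onto DNA in an inactive form, and geminin (GMNN) then holds CDT1 back so that no origin is licensed again. CDC45 and the GINS complex join the ring to make the active helicase, polymerases copy the strands behind it, and the clamp PCNA keeps them on the template. Most of these genes are transcribed ahead of S phase, and many are textbook targets of E2F factors, which bind words in the promoter close to the start site. Hepatocytes of the adult liver are largely out of the cell cycle, whereas liver cancer lines in culture divide.

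The promoters of these genes were searched on both strands, over the 250 bases before each RefSeq start (GRCh38.p14), for the E2F words TTTCCCGC, TTTCGCGC, TTTGCCGC and TTTGGCGC. A promoter was found in the table for 36 of the 39 genes, and 14 of the 36 (38.9%) held such a word: MCM3, MCM6, MCM7, GINS2, CDT1, GMNN, PCNA, RFC3, POLA1, POLA2, POLE, TYMS, LIG1 and E2F1. The same words were in 928 of all 27305 genes with a promoter (3.4%), in 5.52% of the tested genes, and in 15.8% each of the promoters of a list of other replication factors and of a list of mitosis genes. Shown are stretches of 8 of these genes. Each gene was picked by rule to be given in every library and has a word before its most upstream RefSeq start. The count of 14 took a word before any RefSeq start. GMNN, with a word before another start only, and E2F1, not picked by that rule, are not shown. Each stretch is written 5′ to 3′ on the strand of its gene, with the E2F word, or its reverse complement, in capitals.
MCM7: ggggggcgacgTTTCGCGCc
GINS2: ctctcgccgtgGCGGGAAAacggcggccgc
CDT1: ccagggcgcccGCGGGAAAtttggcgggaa
RFC3: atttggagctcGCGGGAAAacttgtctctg
POLA1: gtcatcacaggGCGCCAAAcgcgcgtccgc
POLA2: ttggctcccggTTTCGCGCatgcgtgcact
TYMS: gcgggacggccGCGGGAAAaggcgcgcgga
LIG1: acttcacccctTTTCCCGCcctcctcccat

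These stretches lie at chr7:100101398-100101417 for MCM7, chr16:85688967-85688996 for GINS2, chr16:88803743-88803772 for CDT1 and chr13:33818083-33818112 for RFC3. Those of the other four are chrX:24693770-24693799 for POLA1, chr11:65261898-65261927 for POLA2, chr18:657603-657632 for TYMS and chr19:48170440-48170469 for LIG1. MCM7, GINS2 and LIG1 are on the minus strand and the rest on the plus strand. The words begin 9 bases (MCM7), 31 (GINS2), 35 (CDT1), 39 (TYMS), 53 (POLA2), 55 (RFC3), 114 (LIG1) and 137 (POLA1) before the RefSeq start. All but the POLA1 stretch fall within an annotated GENCODE exon of their own gene, since some transcripts start further upstream, and the TYMS stretch also lies within the gene TYMSOS on the opposite strand. The LIG1 word overlaps a GC box. A match describes the letters only and shows no binding.

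Other promoter words were counted the same way, on both strands. CCAAT was in 22 of the 36 promoters (61.1%), against 37.0% of all promoters and 41.4% of those of tested genes, but also in 55.3% of those of the other replication factors and 84.2% of those of the mitosis genes. The GC box GGGCGG was in 26 (72.2%), close to the 74.6% of tested genes and the 73.7% of mitosis genes, and in 86.8% of other replication factors. The word TTTGAA, the core of the CHR element known from genes of mitosis, was in the RRM1 promoter alone (2.78%), against 11.9% of tested genes, 13.2% of other replication factors and 10 of 19 promoters of the mitosis genes (52.6%). The word GGAGGA, part of the motif of ZNF263, a zinc finger factor named in the study's title, was in 12 of the 36 (33.3%), against 43.3% of tested genes, 34.2% of other replication factors and 42.1% of mitosis genes. No test was made of these shares.

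Several facts about the libraries bear on every comparison with Flag-OGT. OGT itself stood at 32.5 and 34.2 FPKM in MHCC-97H control and at 59.0 and 58.4 with Flag-OGT. In MHCC-97L it stood at 45.7 and 43.9 without and at 51.0 and 54.5 with the construct. By limma it was higher in both lines (1.76-fold, adjusted p = 3.1e-07, and 1.177-fold, adjusted p = 0.0034). As differences of log2(FPKM + 1) these changes were 0.80 and 0.23, where the medians over all tested genes were 0.15 and 0.19. In MHCC-97L the change of OGT thus lay just 0.039 above that median. Across all genes, Pearson's r of log2(FPKM + 1) was 0.997 to 0.998 between replicates and 0.957 to 0.963 between the 2 lines in the same state, but 0.725 to 0.753 between control and Flag-OGT within a line. The labels call all 8 libraries liver cells, yet the summed level of 10 hepatocyte markers was 78.3 to 81.3 FPKM in MHCC-97H control and 219 to 225 in MHCC-97L control, and 1.91 to 4.52 in the 4 Flag-OGT libraries. No hepatocyte marker reached 1 FPKM in both libraries of a Flag-OGT group and TTR was listed at 0 there; 7 of 10 reached it in MHCC-97H control and 10 of 10 in MHCC-97L control. The keratins KRT8 and KRT18 with 3 other epithelial markers summed to 5674 to 6619 FPKM in controls and 19.1 to 29.9 with Flag-OGT. Keratins made up nearly all of the sum in controls. CDH1 stood at 1.52 to 2.93 FPKM in controls and at 0.70 to 2.03 with Flag-OGT, and EPCAM at 0.21 or less in all 8 libraries. Markers of fibroblasts summed to 4.54 to 12.2 FPKM in controls, mostly LUM (4.0 to 11.5), and to 14.6 to 20.9 with Flag-OGT, mostly ACTA2 (8.28 to 16.01) and COL1A1 (3.62 to 6.19). With Flag-OGT LUM stood at 0.08 FPKM or less and COL1A2 was listed at 0, while ACTA2 and COL1A1 were at most 0.18 in controls. Leukocyte markers summed to 69.3 to 82.5 in controls, nearly all of it CD68, and to 3.48 to 9.64 with Flag-OGT, where CD3E was listed at 0. Endothelial markers summed to 33.5 to 46.4 in controls and 0.66 to 1.57 with Flag-OGT, where CDH5 was listed at 0. Embryonic kidney and neural markers (9 of 10 in the table) summed to 60.6 to 183 in controls and 18.4 to 32.6 with Flag-OGT, and TUBB3 made up most of that gap (53.1 to 173 against 3.77 to 11.7 FPKM). Others of that list differed in direction. NEFL stood at 0.04 FPKM or less in controls and at 2.07 to 9.70 with Flag-OGT. PAX2 stood at 0.03 or less and at 1.76 to 2.99. PAX8 went the other way, with 1.82 to 2.40 FPKM in controls and 0.01 or less with Flag-OGT. LHX1 and WT1 stood higher with Flag-OGT in MHCC-97H and lower in MHCC-97L. LHX1 was at 0.61 FPKM or less throughout and was not tested. The lower value of WT1 in MHCC-97L did not pass the test (log2 -0.19 ± 0.10, limma, adjusted p = 0.089). The part of these differences in the results below was not tested. Only the comparison of the control libraries uses the mean of no Flag-OGT group. Its filter and its estimate of the spread still came from all 8 libraries. Read depth is unknown, and the summed FPKM of a library ran from 510449 to 613101.

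Most replication genes stood higher in the Flag-OGT libraries of both lines. The 39 together made up 0.314% and 0.320% of the summed FPKM in MHCC-97H control and 0.520% and 0.517% with Flag-OGT. In MHCC-97L they made up 0.238% and 0.233% in controls and 0.376% and 0.384% with Flag-OGT. In MHCC-97H 29 of the 39 rose, 3 fell (ORC6, CDC6 and RFC4) and 7 did not pass the test, where "rose" and "fell" mean an adjusted p below 0.05 in limma. Of all tested genes 84.6% passed it in that comparison, 48.2% rose and 36.3% fell, so passing the test is common here and the direction carries the description. In MHCC-97L 33 rose, 0 fell and 6 did not pass, against 84.8% of all genes that passed, 50.1% that rose and 34.7% that fell. The 27 genes that rose in both lines were 69.2% of the members, against 40.0% of all tested genes. In bulk RNA a larger share of cells in S phase and more transcript per such cell cannot be told apart.

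Changes are differences of log2(FPKM + 1), which understate the change of genes with low values. The median change of the 39 genes was 0.78 in MHCC-97H, against 0.15 over all tested genes, and 0.75 in MHCC-97L, against 0.19. Relative to those medians of all genes, 28 of the 39 lay above in MHCC-97H and 32 in MHCC-97L. With the FPKM scaled by the median of ratios the medians of all genes came to -0.0031 and 0.024 and those of the 39 genes to 0.58 and 0.54. The split of calls in MHCC-97H then became 27 higher and 7 lower, with MCM10, PRIM2, RRM1 and E2F1 joining the 3. With the same scaling all tested genes split into 5695 higher and 5758 lower there. Higher calls were thus 79.4% of calls among the 39 and 49.7% among all genes. In MHCC-97L the split of the 39 became 30 higher and 3 lower (MCM7, RFC4 and E2F1). That of all genes was 5787 and 5625, so that higher calls were 90.9% and 50.7% of calls. For 25 genes (64.1%) all 4 Flag-OGT libraries lay above all 4 controls, as did 36.7% of all tested genes. Control and Flag-OGT libraries did not overlap for 91.5% of all tested genes in MHCC-97H and 92.1% in MHCC-97L. Between the lines it was 81.4% in controls and 84.5% with Flag-OGT, so a lack of overlap is common here. At 2-fold or more, 12 genes rose in MHCC-97H and 14 in MHCC-97L, where 22.3% and 18.6% of all genes did so.

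**Figure D1:**
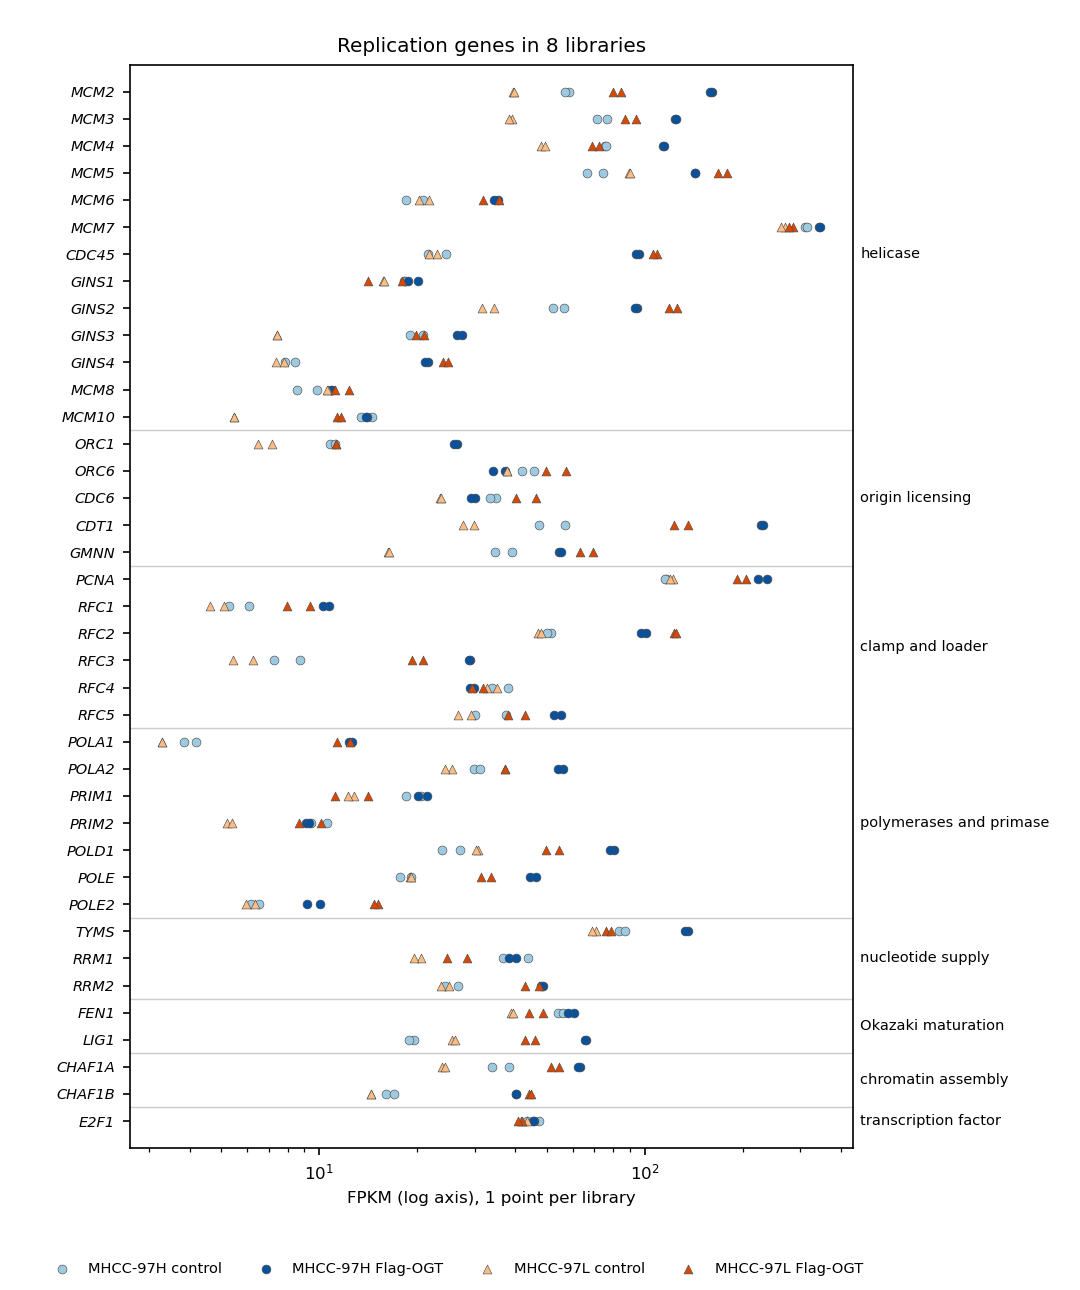
FPKM of the 39 replication genes (rows, grouped by role) in each of the 8 libraries on a log axis; circles are MHCC-97H, triangles MHCC-97L, pale symbols controls and dark symbols Flag-OGT. MCM7 is the most abundant in every group (mean 266 to 344 FPKM), and for 25 genes all 4 dark symbols lie to the right of all 4 pale ones.

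Among the 13 helicase genes, 11 rose in MHCC-97H and 10 in MHCC-97L, where 48.2% and 50.1% of all tested genes rose, and none fell. CDC45, the subunit that ties the MCM ring and GINS into the active helicase, had the largest change of the group in both lines. Its replicates 1 and 2, in that order here and throughout, read 21.6 and 24.6 FPKM in MHCC-97H control and 95.9 and 94.0 with Flag-OGT. In MHCC-97L they read 23.1 and 21.7 without and 109 and 106 with it. All 4 Flag-OGT libraries lay far above all 4 controls. The log2 change was 2.00 ± 0.07 (SE; 4.11-fold, limma, Benjamini-Hochberg adjusted p = 8.1e-10) in MHCC-97H and 2.22 ± 0.07 (4.81-fold, adjusted p = 4.4e-10) in MHCC-97L.

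The 6 subunits of the MCM ring, which assemble in equal numbers, did not change by equal amounts. MCM7 stood highest, at 312 and 314 FPKM in MHCC-97H control, 342 and 346 with Flag-OGT, 270.5 and 262 in MHCC-97L control and 285 and 277 with Flag-OGT. Its libraries separated by group without overlap, but the distances were small. The log2 change was 0.14 ± 0.04 (adjusted p = 0.016) in MHCC-97H and 0.08 ± 0.04 (adjusted p = 0.14) in MHCC-97L. With median-of-ratios scaling these became -0.07 and -0.13, so MCM7 has no direction that holds across scalings. The call in MHCC-97H was also lost without either replicate of MHCC-97H Flag-OGT.

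MCM2, the subunit that also binds histones, read 58.4 and 57.0 FPKM in MHCC-97H control against 161 and 159 with Flag-OGT, and 39.4 and 39.6 in MHCC-97L control against 84.6 and 80.0. All Flag-OGT libraries were above all controls, and the change was 2.77-fold in MHCC-97H (log2 1.45 ± 0.05) and 2.08-fold in MHCC-97L (log2 1.04 ± 0.05). MCM4 rose by less, from 75.2 and 75.9 to 114 and 115 FPKM in MHCC-97H and from 48.0 and 49.3 to 68.7 and 72.3 in MHCC-97L. The control level of MCM4 in MHCC-97H was thus above the Flag-OGT level in MHCC-97L. The changes of MCM4 were 0.59 ± 0.05 (adjusted p = 1.2e-06) and 0.53 ± 0.05 (adjusted p = 3.3e-06). MCM3, MCM5 and MCM6 rose by 1.61-fold to 2.34-fold in the 2 lines. The highest subunit of the ring (MCM7) stood 12.4 to 16.9 times above the lowest (MCM6) in control libraries and 7.75 to 10.0 times above it in Flag-OGT libraries, a ratio within a library that no scaling can move.

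The 4 GINS subunits moved unevenly too. GINS2 read 56.4 and 52.3 FPKM in MHCC-97H control and 94.6 and 93.5 with Flag-OGT, and 34.4 and 31.6 in MHCC-97L control and 126 and 119 with Flag-OGT. The order of the lines turned over: MHCC-97H was higher in controls and MHCC-97L with Flag-OGT, with no overlap in either state. GINS2 rose 1.73-fold (log2 0.78 ± 0.06, adjusted p = 7.5e-07) in MHCC-97H and 3.71-fold (log2 1.86 ± 0.06, adjusted p = 1.0e-09) in MHCC-97L. GINS3 read 19.0 and 20.9 FPKM in MHCC-97H control and 26.6 and 27.4 with Flag-OGT, but 7.44 and 7.43 in MHCC-97L control and 19.9 and 21.0 with Flag-OGT. Its MHCC-97L controls stood apart as the low pair, and the Flag-OGT libraries of that line stood at about the level of MHCC-97H controls. The changes were 0.42 ± 0.06 (1.36-fold, adjusted p = 1.3e-04) and 1.35 ± 0.06 (2.75-fold, adjusted p = 1.6e-08). GINS4 rose 2.62-fold and 3.21-fold. GINS1 passed the test in neither line (log2 0.08 ± 0.10 and 0.02 ± 0.10), and its values ran from 14.1 to 20.1 FPKM over all 8 libraries.

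**Figure D2:**
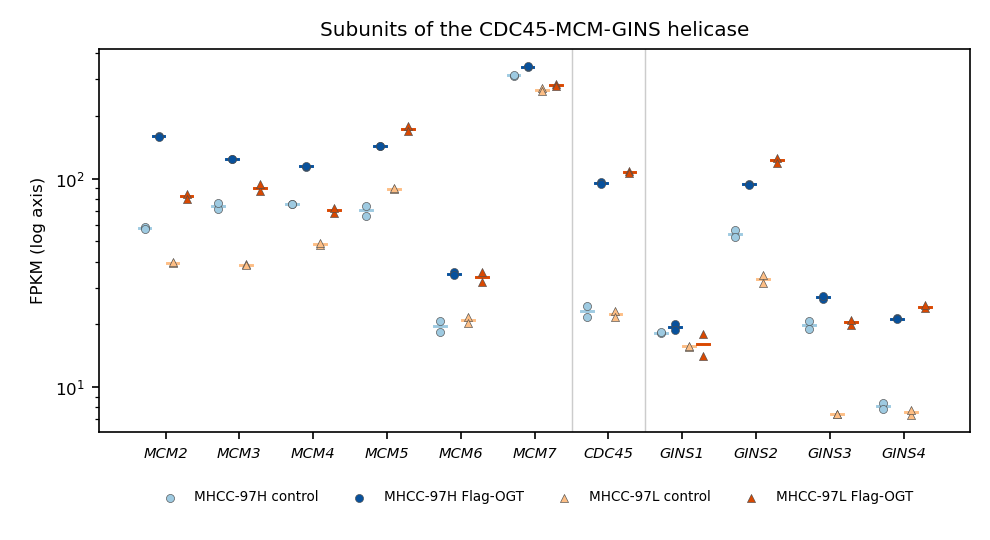
FPKM (log axis) of the subunits of the active helicase; points are libraries and short bars the means of 2 libraries, in the order MHCC-97H control, MHCC-97H Flag-OGT, MHCC-97L control, MHCC-97L Flag-OGT. CDC45 lies between 21.6 and 24.6 FPKM in controls and between 94.0 and 109 with Flag-OGT, while MCM7 and GINS1 differ little between groups.

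MCM10, which helps to activate the loaded helicase and brings in polymerase alpha, differed between the lines. It read 13.4 and 14.5 FPKM in MHCC-97H control and 14.0 and 13.9 with Flag-OGT, which overlap. In MHCC-97L it read 5.48 and 5.47 in controls and 11.3 and 11.7 with Flag-OGT, well apart. The change was 0.00 ± 0.06 (adjusted p = 0.99) in MHCC-97H, -0.19 with median-of-ratios scaling, and 0.95 ± 0.06 (2.1-fold, adjusted p = 1.8e-07) in MHCC-97L. MCM8, a relative of the ring subunits known from recombination repair, changed by 0.23 ± 0.08 (adjusted p = 0.019) in MHCC-97H, a call lost with both other scalings and without replicate 1 of the MHCC-97H controls or either MHCC-97H Flag-OGT replicate. In MHCC-97L its change was 0.13 ± 0.08 (adjusted p = 0.13).

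All 5 licensing genes rose in MHCC-97L, whereas in MHCC-97H 3 rose and 2 fell. Of all tested genes 50.1% rose in MHCC-97L, and 48.2% rose and 36.3% fell in MHCC-97H. CDT1, which brings the MCM ring to the origin, read 57.0 and 47.2 FPKM in MHCC-97H control, 228 and 231 with Flag-OGT, 27.7 and 29.8 in MHCC-97L control and 136 and 123 with Flag-OGT. Every Flag-OGT library was above every control. The log2 change was nearly the same in the lines, at 2.12 ± 0.09 (4.41-fold, adjusted p = 3.9e-09) and 2.13 ± 0.09 (4.50-fold, adjusted p = 4.6e-09), and the difference between them was -0.01 ± 0.12 (adjusted p = 0.97).

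Geminin (GMNN), the inhibitor of CDT1, did not keep to that pattern. It read 34.6 and 39.1 FPKM in MHCC-97H control, 54.4 and 55.4 with Flag-OGT, 16.3 and 16.3 in MHCC-97L control and 63.2 and 69.2 with Flag-OGT. The Flag-OGT libraries were all higher, and MHCC-97L went from the lowest group to the highest. The gap between the Flag-OGT groups (log2 -0.26 ± 0.07, limma, adjusted p = 0.0066) was not called with either other scaling. The change was 1.49-fold in MHCC-97H (log2 0.57 ± 0.07, adjusted p = 2.5e-05) and 4.06-fold in MHCC-97L (log2 1.96 ± 0.07, adjusted p = 1.6e-09). The difference, -1.39 ± 0.10 (adjusted p = 2.3e-06), was the largest among the 39 genes.

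CDC6, the ATPase that works with the origin recognition complex in loading the ring, read 34.9 and 33.5 FPKM in MHCC-97H control and 30.1 and 29.3 with Flag-OGT. In MHCC-97L it read 23.6 and 23.7 in controls and 40.1 and 46.3 with Flag-OGT. The groups did not overlap in either line, but they moved in opposite directions. CDC6 fell by 0.20 ± 0.07 on the log2 scale in MHCC-97H (adjusted p = 0.024) and rose by 0.84 ± 0.07 in MHCC-97L (1.83-fold, adjusted p = 1.2e-06). The fall was no longer called without replicate 1 of MHCC-97H control or without either MHCC-97H Flag-OGT replicate.

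ORC6, the smallest subunit of the origin recognition complex, behaved alike in direction, with 41.9 and 45.8 FPKM in MHCC-97H control and 37.1 and 34.1 with Flag-OGT, and 37.7 and 37.8 in MHCC-97L control and 49.8 and 57.3 with Flag-OGT. It was 0.812 times the control level in MHCC-97H (log2 -0.29 ± 0.08, adjusted p = 0.0052, not called without replicate 2 of MHCC-97H Flag-OGT) and 1.42 times in MHCC-97L (log2 0.49 ± 0.08, adjusted p = 1.7e-04). ORC1, the largest subunit and an ATPase, read 10.8 and 11.2 FPKM in MHCC-97H control and 26.5 and 25.9 with Flag-OGT, and 6.49 and 7.15 in MHCC-97L control and 11.2 and 11.3 with Flag-OGT. The Flag-OGT libraries of MHCC-97L only just passed the controls of MHCC-97H. ORC1 rose 2.39-fold (log2 1.183 ± 0.06, adjusted p = 3.3e-08) and 1.65-fold (log2 0.65 ± 0.06, adjusted p = 4.3e-06).

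**Figure D3:**
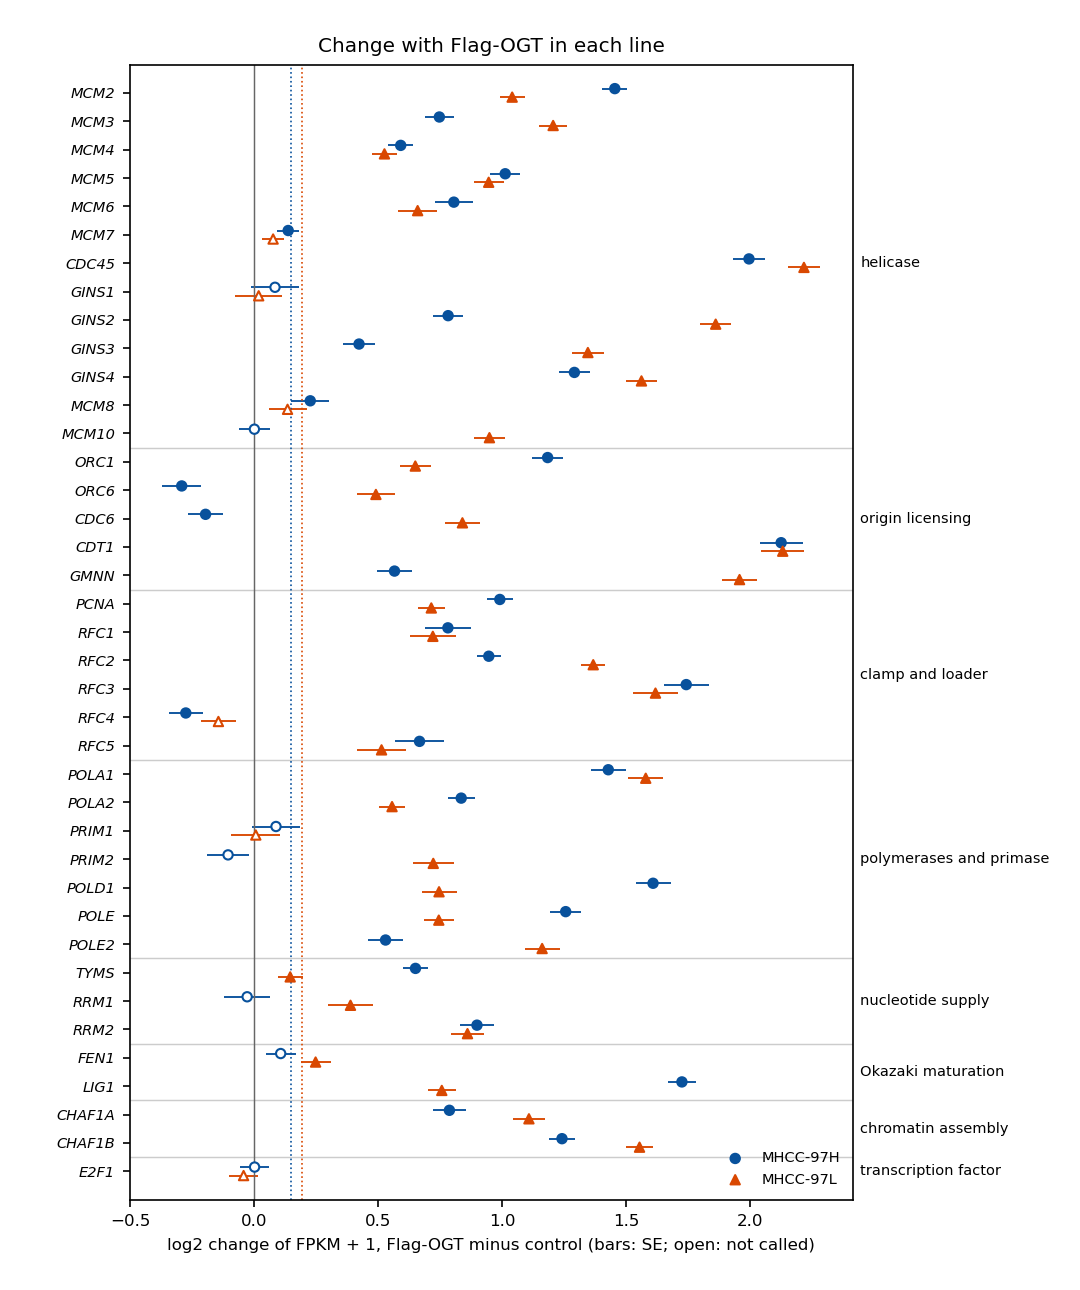
Log2 change of FPKM + 1 from control to Flag-OGT with its SE for each of the 39 genes, in MHCC-97H (circles) and MHCC-97L (triangles); open symbols did not pass the test and dotted lines mark the median of all tested genes in each line (0.15 and 0.19). CDT1, CDC45 and RFC3 lie to the far right in both lines, while GMNN, GINS2 and LIG1 show wide gaps between the 2 symbols.

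The clamp PCNA, a ring of identical subunits that tethers polymerases to DNA, rose 2.00-fold in MHCC-97H and 1.65-fold in MHCC-97L. Its loader, replication factor C, has a large subunit (RFC1) and small subunits (RFC2 to RFC5), and these parted. RFC3 read 7.25 and 8.71 FPKM in MHCC-97H control, 29.1 and 28.8 with Flag-OGT, 6.27 and 5.43 in MHCC-97L control and 19.2 and 20.8 with Flag-OGT. All Flag-OGT libraries were higher than all controls, by 3.63-fold (log2 1.74 ± 0.09, adjusted p = 2.6e-08) and 3.42-fold (log2 1.62 ± 0.09, adjusted p = 5.5e-08). RFC4 went the other way, from 34.0 and 37.9 to 29.8 and 29.1 FPKM in MHCC-97H and from 35.2 and 32.8 to 29.5 and 31.8 in MHCC-97L. Its Flag-OGT libraries lay below the controls of the same line in both cases. The change was -0.28 ± 0.07 (0.82-fold, adjusted p = 0.0037) in MHCC-97H and -0.14 ± 0.07 (adjusted p = 0.074) in MHCC-97L, where the test was passed with both other scalings and without either replicate of MHCC-97H control.

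RFC5 read 30.0 and 37.5 FPKM in MHCC-97H control, 52.5 and 55.2 with Flag-OGT, 29.3 and 26.7 in MHCC-97L control and 38.1 and 42.8 with Flag-OGT. The lowest Flag-OGT library was close to the highest control, though the groups of each line stayed apart. RFC5 rose by 0.67 ± 0.10 (adjusted p = 1.2e-04) and 0.51 ± 0.10 (adjusted p = 7.8e-04). RFC1 and RFC2 rose 1.78-fold to 2.61-fold. Within a library RFC2 was the most and RFC1 the least abundant loader subunit in all 8.

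Of the 7 polymerase and primase genes, 5 rose in MHCC-97H (48.2% of all tested genes), 6 rose in MHCC-97L (50.1% of all) and none fell. POLA1, the catalytic subunit of polymerase alpha, which extends the RNA primer, read 3.84 and 4.18 FPKM in MHCC-97H control, 12.3 and 12.6 with Flag-OGT, 3.30 and 3.30 in MHCC-97L control and 11.3 and 12.4 with Flag-OGT. It was the least abundant of the 39 genes in both control groups and well above that level in every Flag-OGT library. The change was 3.11-fold (log2 1.43 ± 0.07, adjusted p = 1.7e-08) in MHCC-97H and 3.59-fold (log2 1.58 ± 0.07, adjusted p = 9.5e-09) in MHCC-97L. POLA2, its regulatory partner, read 29.9 and 31.1 against 55.9 and 54.3 FPKM in MHCC-97H and 25.6 and 24.4 against 37.3 and 37.2 in MHCC-97L. Again no Flag-OGT library fell within the controls, and the changes were 0.83 ± 0.05 (adjusted p = 1.4e-07) and 0.56 ± 0.05 (adjusted p = 4.0e-06).

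The primase subunits, which lay down the RNA primers in the same complex, did not follow polymerase alpha. PRIM1 passed the test in neither line, with changes of 0.09 ± 0.10 and 0.01 ± 0.10 and overlapping groups. PRIM2 changed by -0.11 ± 0.08 (adjusted p = 0.26) in MHCC-97H and rose 1.78-fold in MHCC-97L (log2 0.72 ± 0.08). PRIM2 was the least abundant member in MHCC-97H Flag-OGT, with a mean of 9.20 FPKM.

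POLD1, the catalytic subunit of the lagging-strand polymerase delta, read 27.0 and 23.8 FPKM in MHCC-97H control, 80.4 and 78.2 with Flag-OGT, 30.8 and 30.4 in MHCC-97L control and 54.4 and 49.6 with Flag-OGT. The lines were close in controls and far apart with Flag-OGT. POLD1 rose 3.12-fold (log2 1.61 ± 0.07, adjusted p = 6.9e-09) and 1.70-fold (log2 0.75 ± 0.07, adjusted p = 3.4e-06). POLE, the catalytic subunit of the leading-strand polymerase epsilon, rose 2.46-fold and 1.71-fold. Its partner POLE2 showed the opposite order, with 6.15 and 6.55 FPKM in MHCC-97H control, 10.1 and 9.15 with Flag-OGT, 5.94 and 6.36 in MHCC-97L control and 15.2 and 14.8 with Flag-OGT. The controls of the lines overlapped and the Flag-OGT groups did not. The changes of POLE2 were 0.53 ± 0.07 (adjusted p = 4.8e-05) and 1.16 ± 0.07 (adjusted p = 1.0e-07).

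Of the genes that supply deoxynucleotides, TYMS makes thymidylate, and RRM1 and RRM2 form ribonucleotide reductase. TYMS read 83.4 and 87.0 FPKM in MHCC-97H control, 136 and 133 with Flag-OGT, 70.6 and 68.8 in MHCC-97L control and 75.9 and 78.5 with Flag-OGT. The step was wide in MHCC-97H and narrow in MHCC-97L. It came to 0.65 ± 0.05 (adjusted p = 5.6e-07) and 0.14 ± 0.05 (adjusted p = 0.020), and the latter was -0.06 with median-of-ratios scaling and no longer called with a common sum or without replicate 2 of either MHCC-97L group. RRM2, the small subunit, whose level follows S phase, read 24.4 and 26.6 against 48.7 and 48.1 FPKM in MHCC-97H and 25.1 and 23.6 against 42.8 and 47.2 in MHCC-97L. Controls and Flag-OGT libraries were apart, by 0.90 ± 0.07 (adjusted p = 5.1e-07) and 0.86 ± 0.07 (adjusted p = 7.8e-07). RRM1, the large subunit, changed by -0.03 ± 0.09 in MHCC-97H (adjusted p = 0.78) and by 0.39 ± 0.09 in MHCC-97L (adjusted p = 0.0027), a rise that median-of-ratios scaling left uncalled.

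Okazaki fragments are trimmed by the flap nuclease FEN1 and sealed by DNA ligase 1 (LIG1). LIG1 read 19.6 and 18.8 FPKM in MHCC-97H control, 66.0 and 65.5 with Flag-OGT, 25.6 and 26.2 in MHCC-97L control and 46.0 and 42.9 with Flag-OGT. MHCC-97H was the lower line in controls and the higher with Flag-OGT, again without overlap. LIG1 rose 3.42-fold (log2 1.72 ± 0.06, adjusted p = 6.9e-10) and 1.72-fold (log2 0.76 ± 0.06, adjusted p = 4.6e-07). FEN1 moved far less, with 54.0 and 56.3 against 60.6 and 58.3 FPKM in MHCC-97H and 38.8 and 39.2 against 44.2 and 48.9 in MHCC-97L. Its change was 0.11 ± 0.06 (adjusted p = 0.12) in MHCC-97H, -0.09 with median-of-ratios scaling, and 0.25 ± 0.06 (adjusted p = 0.0032) in MHCC-97L, where both other scalings ended the call.

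Chromatin assembly factor 1 places histones on new DNA behind the fork. Its large subunit CHAF1A read 38.3 and 33.9 FPKM in MHCC-97H control, 63.3 and 62.4 with Flag-OGT, 23.8 and 24.3 in MHCC-97L control and 54.6 and 51.4 with Flag-OGT. CHAF1B, the middle subunit, read 16.0 and 16.9 against 40.3 and 40.2 in MHCC-97H and 14.5 and 14.4 against 44.0 and 44.6 in MHCC-97L. For both genes every Flag-OGT library was above every control. CHAF1A changed by 0.79 ± 0.07 (adjusted p = 1.2e-06) and 1.11 ± 0.07 (adjusted p = 8.6e-08). CHAF1B changed by 1.24 ± 0.05 (adjusted p = 6.4e-09) and 1.55 ± 0.05 (adjusted p = 1.4e-09).

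E2F1, the transcription factor whose targets include many of these genes, lay between 40.8 and 47.3 FPKM in all 8 libraries. It read 47.3 and 43.6 FPKM in MHCC-97H control, 45.6 and 45.3 with Flag-OGT, 41.7 and 43.6 in MHCC-97L control and 42.0 and 40.8 with Flag-OGT. The groups overlapped in both lines. The change was 0.00 ± 0.06 (adjusted p = 0.98) in MHCC-97H and -0.04 ± 0.06 (adjusted p = 0.50) in MHCC-97L. With median-of-ratios scaling it was -0.20 (adjusted p = 0.015) in MHCC-97H, and E2F1 counted as lower in MHCC-97L with both other scalings. Members with an E2F word had a median change of 0.82 in MHCC-97H (n = 14) and those without 0.48 (n = 22). In MHCC-97L these medians were 0.75 and 0.73.

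The difference of the Flag-OGT change between the lines, tested as an interaction, passed for 22 of the 39 genes, against 63.3% of all tested genes. The change was larger in MHCC-97H for 8 (MCM2, ORC1, PCNA, POLA2, POLD1, POLE, TYMS and LIG1; 33.9% of all genes) and smaller for 14 (29.4% of all genes). At 2-fold or more 3 were smaller (GMNN, GINS2 and CDC6), against 3.31% of all genes. The largest positive difference was that of LIG1, 0.97 ± 0.08 (adjusted p = 5.6e-06), followed by POLD1 at 0.86 ± 0.10 (adjusted p = 5.5e-05). On the other side, after GMNN, stood GINS2 at -1.08 ± 0.09 (adjusted p = 5.4e-06), CDC6 at -1.04 ± 0.10 (adjusted p = 1.6e-05), MCM10 at -0.95 ± 0.09 (adjusted p = 1.3e-05) and GINS3 at -0.92 ± 0.09 (adjusted p = 2.0e-05). By role, 3 of the 5 licensing genes and 5 of the 13 helicase genes had the smaller change in MHCC-97H. Among polymerase and primase genes POLA2, POLD1 and POLE had the larger one there and PRIM2 and POLE2 the smaller, and the difference was not called for POLA1 and PRIM1.

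Among control libraries, which carry no Flag-OGT, MHCC-97H stood above MHCC-97L for 23 of the 39 genes and below for 3 (MCM5, POLD1 and LIG1). In this comparison 65.4% of all tested genes passed, 26.5% higher and 38.9% lower. The median difference was 0.23 over the 39 genes and -0.07 over all. The widest gap was that of GINS3, 2.68-fold (log2 1.31 ± 0.06, adjusted p = 1.6e-07), then MCM10 with 2.55-fold (log2 1.21 ± 0.06, adjusted p = 2.1e-07) and GMNN with 2.26-fold (log2 1.13 ± 0.07, adjusted p = 6.6e-07). These 3 differed by 2-fold or more on the log2(FPKM + 1) scale, against 2.19% of all genes. RRM1 was 2.01-fold higher in MHCC-97H and CDT1 1.81-fold. With both other scalings the split was 31 higher and 2 lower, and the share of calls over all genes that were higher went from 40.5% to 52.5% (common sum) and 54.6% (median of ratios).

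With Flag-OGT in both lines, 22 of the 39 genes were higher in MHCC-97H and 10 lower, where 69.7% of all tested genes passed, 33.6% higher and 36.1% lower. ORC1 had the widest gap, 2.33-fold (log2 1.15 ± 0.06, adjusted p = 3.7e-07), the 1 gene past 2-fold (4.24% of all genes), and MCM2 was 1.94-fold higher. CDC6 (log2 -0.52 ± 0.07, adjusted p = 9.6e-05), ORC6 (log2 -0.57 ± 0.08) and POLE2 (log2 -0.59 ± 0.07) were lower in MHCC-97H. The split was 26 higher and 5 lower with both other scalings, and the share of all calls that were higher went from 48.2% to 62.6% and 60.2%. The mean was highest in MHCC-97H Flag-OGT for 24 genes, in MHCC-97L Flag-OGT for 11 and in MHCC-97H control for 4 (MCM10, RFC4, PRIM2 and RRM1). It was lowest in MHCC-97L control for 29. These ranks were not counted over all tested genes, so they do not set the 39 apart. They also depend on scaling: a common sum turned the order of the Flag-OGT groups for CDC45, GINS4 and CHAF1B.

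**Figure D4:**
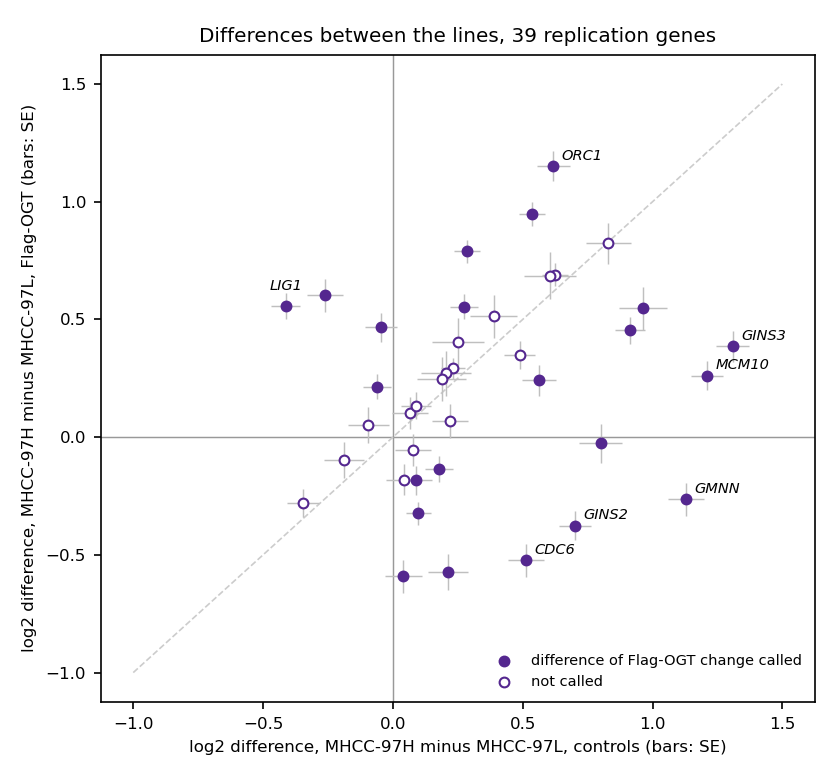
Log2 difference between the lines (MHCC-97H minus MHCC-97L) of each of the 39 genes, in controls (x axis) and with Flag-OGT (y axis), with SE; filled points passed the test of the difference of the Flag-OGT change and the dashed line marks no such difference. GMNN, GINS2 and CDC6 lie at the lower right (positive in controls, negative with Flag-OGT), and LIG1 at the upper left. The negative value of GMNN was not called with either other scaling.

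The rest of the replication machinery, 49 genes listed by function, moved in both directions. MHCC-97H had 28 that rose and 13 that fell (median change 0.30), and MHCC-97L had 32 and 7 (median 0.72). Over all tested genes 48.2% rose and 36.3% fell in MHCC-97H, and 50.1% and 34.7% in MHCC-97L. CDC7, the kinase that fires licensed origins, rose by 1.31 ± 0.07 and 1.72 ± 0.07. POLD4, the smallest subunit of polymerase delta, fell while POLD1 rose, from 48.4 and 44.7 to 5.58 and 4.83 FPKM in MHCC-97H and from 63.4 and 61.2 to 15.4 and 14.0 in MHCC-97L (log2 -2.94 ± 0.08 and -2.01 ± 0.08). ORC5, another subunit of the origin recognition complex, fell as well (log2 -1.51 ± 0.06 and -1.17 ± 0.06).

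Of 17 other E2F, pocket protein and related genes, 12 rose in MHCC-97H and 13 in MHCC-97L, and 1 fell in each line. Beside this list and the mitosis genes below, 48.2% and 50.1% of all tested genes rose and 36.3% and 34.7% fell. TFDP2, a dimer partner of E2F factors, rose by 1.97 ± 0.09 and 1.59 ± 0.09. RB1, the retinoblastoma protein that restrains E2F factors, stood at 0.97 and 1.27 FPKM in MHCC-97H control and 5.13 and 5.01 with Flag-OGT, and at 0.93 and 0.70 against 5.66 and 6.02 in MHCC-97L (log2 1.52 ± 0.09 and 1.92 ± 0.09). The 1 gene that fell in both lines was RBL1, a pocket protein related to RB1 (log2 -1.10 ± 0.07 and -0.27 ± 0.07). Of 25 mitosis genes 13 rose in MHCC-97H and 14 in MHCC-97L, 8 fell in each, and the medians of 0.22 and 0.23 were close to those of all genes. The extremes among them were CDC25C (log2 1.44 ± 0.09 and 1.63 ± 0.09) and AURKB (1.24 ± 0.06 and 1.45 ± 0.06) on the high side, and NDC80 (-1.06 ± 0.08 and -0.74 ± 0.08) and FOXM1 (-0.72 ± 0.06 and -0.80 ± 0.06) on the low side.

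**Figure D5:**
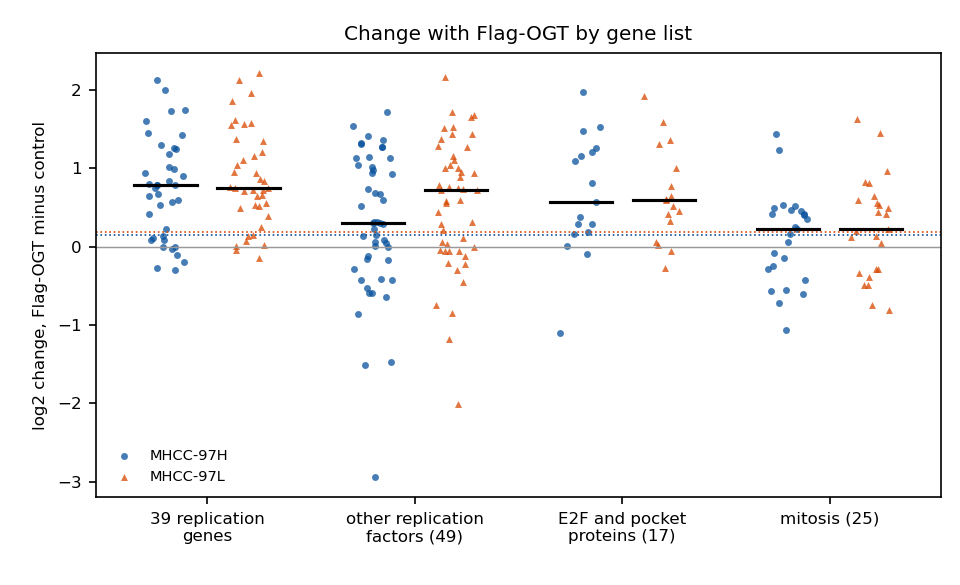
Log2 change from control to Flag-OGT of the 39 replication genes, 49 other replication factors, 17 E2F and pocket protein genes and 25 mitosis genes, 1 point per gene and line; black bars are list medians and dotted lines the medians of all tested genes. The 39 genes have medians of 0.78 and 0.75, and the mitosis genes 0.22 and 0.23, next to 0.15 and 0.19 over all genes.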

How the data were processed

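The authors deposited gene-level FPKM for 8 libraries, rounded to 2 decimals; per the submitters' processing notes the build was hg19 and the tools included DESeq2 1.18.1, RSEM 1.2.4, HISAT2 2.1.0 and Bowtie2. Not given in the sources used here are the tool that made the FPKM and whether counting used strand. If it did not, reads in the overlapping stretches of MCM2, MCM7, GINS2, GINS3, GINS4, RFC4, RFC5, PRIM1, TYMS, RRM1, FEN1, LIG1 and CHAF1A, 13 of the 39 genes, cannot be told apart from those of the genes with exons on the other strand (GENCODE, GRCh38). Of 18928 features, 26 whose symbols had become dates were left out (at most 0.100% of a library's FPKM), and 55 carry numbers as names.

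A limma 3.58.1 model (R 4.3.3; eBayes with trend, 4 residual degrees of freedom) with a mean for each of the 4 groups was fitted to log2(FPKM + 1) over the 8 libraries. The test took genes whose mean FPKM was 0.5 or more, p-values were Benjamini-Hochberg adjusted over all 13553, and an adjusted p below 0.05 was called. The 5 contrasts set Flag-OGT against control within each line, these changes against each other, and the lines against each other in each state. The fit was also run on simulated data in which few genes changed, in a single group and with independent noise. Most genes are called in the real data, so that run does not check these calls. The fold given is the ratio of mean FPKM. Given in every library are, for each role, the called genes with the highest and lowest change, the 6 largest differences of the Flag-OGT change and the 4 largest gaps between lines, with MCM2 and E2F1 added after their values were seen; other lists name up to 2 called genes at either end, of which 1 is not reported here. The alternatives were a pseudocount of 0.1, no filter or a mean of at least 2 FPKM, 2 other scalings (a common sum of FPKM, and the median ratio to the geometric mean of the libraries), no trend, only the groups compared, each library left out, a 2-fold minimum and a replicate block. The genes and lists were chosen with earlier results of these data known. Promoters are RefSeq's (GRCh38.p14), and since the FPKM were made on another build they served only for the sequences. Chromatin immunoprecipitation libraries of the study were not analysed here.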

Additional observations from a re-analysis of the deposited data

Results flagged for a closer look

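For 22 of the 39 genes the change with Flag-OGT differed between the lines by the test of the difference itself (limma, adjusted p below 0.05), which 63.3% of all tested genes also passed. Values are the log2 change in MHCC-97H minus that in MHCC-97L. Positive differences were those of LIG1 (0.97), POLD1 (0.86), ORC1 (0.53), POLE (0.51), TYMS (0.51), MCM2 (0.41), PCNA (0.28) and POLA2 (0.28). Negative differences above -0.5 were those of GINS4 (-0.27), CHAF1B (-0.31), CHAF1A (-0.32), RRM1 (-0.42), RFC2 (-0.42) and MCM3 (-0.46). Further down lay POLE2 (-0.63), ORC6 (-0.78), PRIM2 (-0.83), GINS3 (-0.92), MCM10 (-0.95), CDC6 (-1.04), GINS2 (-1.08) and GMNN (-1.39). CDC6 and ORC6 were called in opposite directions in the lines. The calls of GINS4 and RRM1 were lost in 5 of 15 other settings each, among them the omission of single Flag-OGT libraries, and that of PCNA without replicate 1 of MHCC-97H Flag-OGT.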

How the results depend on the processing

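Over 151 gene results, of which 145 were called, a pseudocount of 0.1 ended 2 calls, no filter 6, the fit without trend 3 and a mean of at least 2 FPKM 0; none of these turned a direction. Scaling mattered more. In MHCC-97H median-of-ratios scaling gave log2 changes of -0.067 for MCM7, -0.19 for MCM10, -0.094 for FEN1 and -0.20 for E2F1, and a common sum gave -0.052 for MCM10 and -0.054 for E2F1. In MHCC-97L MCM7 came to -0.043 with a common sum and -0.13 with the median of ratios, and TYMS to -0.063 with the latter. Between the Flag-OGT groups a common sum gave 0.016 for CDC45, 0.0067 for GINS4 and 0.058 for CHAF1B, and the median of ratios 0.023 for CHAF1B. The cause was not tested.

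A 2-fold minimum left 12 called genes of the 39 in MHCC-97H, 14 in MHCC-97L, 3 for the difference of the changes, 3 between controls and 1 between Flag-OGT groups. Leaving out each library in turn gave 28 to 32, 32 to 34, 19 to 23, 22 to 27 and 25 to 33 called genes of the 39, and 10821 to 11489, 10934 to 11632, 7476 to 8591, 7548 to 8921 and 8236 to 9683 of all genes. A group then rests on 1 library that is assumed to vary like the others. The changes of MCM10 and E2F1 in MHCC-97H ran from -0.052 to 0.052 and from -0.056 to 0.059; the turned signs were -0.052 and -0.0020 for MCM10 and -0.056 and -0.0029 for E2F1.

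Replicate numbers did not pair the libraries: replicate differences correlated at r = -0.21 to 0.31 across groups. With a replicate block 32, 33, 22, 27 and 31 of the 39 genes were called, and 11436, 11473, 8553, 8811 and 9403 of all genes; CHAF1B between the Flag-OGT groups was the 1 gene call lost. Depth is unknown, so no counting error could be given for low genes such as POLA1.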

Other observations

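Ratios of partner genes within a library do not move with scaling. The following were picked after their values were seen and carry no test. CDT1 over its inhibitor GMNN was 1.65 and 1.21 in MHCC-97H control, 1.70 and 1.83 in MHCC-97L control, 2.15 and 1.77 in MHCC-97L Flag-OGT, and 4.20 and 4.17 in MHCC-97H Flag-OGT. The last group stood alone, since CDT1 rose about alike in both lines and GMNN did not. RFC3 over RFC4, both small subunits of the clamp loader, was 0.166 to 0.230 in the 4 controls, 0.650 and 0.654 in MHCC-97L Flag-OGT, and 0.976 and 0.988 in MHCC-97H Flag-OGT.

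LIG1 over FEN1 was 0.362 and 0.335 in MHCC-97H control, 0.660 and 0.667 in MHCC-97L control, 1.09 and 1.12 in MHCC-97H Flag-OGT and 1.04 and 0.878 in MHCC-97L Flag-OGT. The lines were apart in controls and near each other with Flag-OGT. RRM2 over RRM1, the 2 subunits of ribonucleotide reductase, was 0.667 and 0.608 in MHCC-97H control, 1.27 and 1.197 in MHCC-97H Flag-OGT, 1.224 and 1.203 in MHCC-97L control and 1.73 and 1.66 in MHCC-97L Flag-OGT. MHCC-97H with Flag-OGT thus had about the ratio of MHCC-97L without it. POLE2 over POLE, subunits of the same polymerase, was 0.321 and 0.369 in MHCC-97H control and 0.227 and 0.197 with Flag-OGT, but 0.313 and 0.333 in MHCC-97L control and 0.450 and 0.469 with Flag-OGT.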
